A study of Arabidopsis thaliana with 4 samples.

Results

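The endoplasmic reticulum (ER) body genes and a set of associated probe sets were followed in the shoots of Arabidopsis thaliana plants of wild-type and php genotype. The 8 probe sets, of 22810 on the array, were PYK10, JAL22 and JAL23, taken by gene symbol, and AT1G54020, NAI2, 259327_at, 263156_at and 257008_at, taken by probe set. They were selected on the difference between php and wild-type in these same arrays, whose values were known, so that difference is described here and not tested. The platform annotation lists 6 of the 8 with a gene. It gives 259327_at as JAL34 (AT3G16460), a jacalin-related lectin gene, whereas that probe set had been chosen as PBP1 (AT3G16420), and JAL34 is the name used below. It lists no gene for 263156_at and 257008_at, which had been chosen as probe sets of the glucosinolate breakdown genes ESP and ESM1. These carry their probe set names here, no role is given to them, and no measured gene of the set stands for glucosinolate breakdown other than PYK10.

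Aerial tissue was collected from soil-grown plants at 14 days of age. The genotypes were wild-type and the php mutant, whose php gene encodes the Arabidopsis relative of parafibromin, a subunit of the PAF1 complex that travels with RNA polymerase II. Neither the php allele nor the accession of the plants is stated in the labels. Each genotype had 2 Affymetrix ATH1 arrays, replicates I and II, and each array held 3 independently derived samples, so the arrays give no spread between single samples. Levels are GCRMA values on a log2 scale, on which a difference of 1 is 2-fold. A probe set measures a transcript in its own units, so levels are compared between arrays and never between genes.

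ER bodies are spindle-shaped compartments of the ER, found in the mustard order, that store large amounts of beta-glucosidase. PYK10 is the main such enzyme of seedlings and roots, and it can release toxic products from indole glucosinolates once a cell is broken. NAI2 is required for ER bodies to form, and NAI1 is a transcription factor that activates PYK10 and NAI2. Jacalin-related lectins and GDSL lipase-like proteins bind PYK10 into large aggregates, called the PYK10 complex, after cells are damaged.

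All 8 probe sets had a higher mean in php, as did 51.2% of all tested probe sets, and 7 of the 8 were higher on both php arrays than on either wild-type array. Their median log2 difference was 0.53, with a range of 0.09 to 3.68, against a median of 0.01 over the 15922 probe sets that passed the filter on dim values. The lipase gene AT1G54020 and the lectin genes JAL22 and JAL23 differed by at least 2-fold, while PYK10, NAI2 and JAL34 differed by 1.39-fold to 1.49-fold. Among all tested probe sets, 33.2% were higher on both php arrays and 1.07% differed by at least 2-fold in either direction. The limma fit called 0 of the 8 at an adjusted p under 0.05, where it called 0.0314% of all tested probe sets, and 4 of the 8 had an unadjusted p under 0.05, where 24.2% of all did. Because the choice used this contrast, nothing is read from these counts.

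PYK10, the ER body beta-glucosidase, stood at 11.67 and 11.87 in wild-type against 12.31 and 12.17 in php (log2 level). Both php arrays lay above both wild-type arrays, by at least 0.30. The mean was 11.77 ± 0.15 in wild-type and 12.24 ± 0.10 in php (SD, n = 2 arrays each), a log2 difference of 0.47 with a standard error of 0.10, or 1.39-fold. Standard errors here, below and in the figures come from the limma fit. That fit draws the variance of each probe set toward that of the others. For each of the 8 probe sets, PYK10 included, the standard errors are smaller than the SDs of the arrays give. This holds also for JAL23 and AT1G54020, whose php arrays lay far apart. Left with either php array alone, the PYK10 difference from the wild-type mean was 0.40 or 0.54. With wild-type replicate I or II left out it was 0.37 or 0.58. As these are bulk tissue samples, more cells with ER bodies and more PYK10 transcript per cell cannot be told apart.

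NAI2, needed for the formation of ER bodies, was at 8.68 and 8.62 in wild-type and at 9.39 and 8.88 in php (log2 level). The wild-type arrays were close together, and php replicate I stood well above php replicate II. It differed by 0.49 on the log2 scale (SE 0.19), or 1.40-fold, and it was 0.23 without php replicate I and 0.74 without php replicate II. Nearly the same shape was seen for the lectin gene JAL34, at 9.05 and 9.11 in wild-type and at 9.96 and 9.35 in php. It differed by 0.58 (SE 0.22), or 1.49-fold, and 0.27 without php replicate I. Of the 28 pairs among the 8 probe sets, NAI2 and JAL34 were the closest in their 4-array pattern, at a root mean square distance of 0.07 log2 units after each was centred on its own mean.

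JAL22 and JAL23 encode jacalin-related lectins recovered with the PYK10 complex, and in the TAIR10.1 order 1 gene model, AT2G39320, lies between them. JAL22 was at 8.27 and 8.67 in wild-type and at 9.59 and 9.38 in php (log2 level). Every php value was above every wild-type value by at least 0.71, and the log2 difference was 1.01 (SE 0.17), or 2.02-fold. JAL23 was at 6.56 and 6.66 in wild-type and at 8.13 and 7.31 in php. The genotypes were again apart, by at least 0.65, but the php arrays differed by 0.82, a wider gap than 98.2% of tested probe sets had. The log2 difference of JAL23 was 1.11 (SE 0.30), or 2.16-fold, and it was 0.70 without php replicate I and 1.52 without php replicate II. That of JAL22 was 0.91 and 1.12 in the same settings. Without wild-type replicate I or II, JAL22 differed by 0.82 or 1.21 and JAL23 by 1.05 or 1.16. The lectins of this neighbouring pair thus had like mean differences. JAL22 was the less dependent on 1 php array, and JAL23 on 1 wild-type array.

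The GDSL-type lipase gene AT1G54020 had the largest difference of the 8. It was at 2.77 and 2.67 in wild-type, just above the level of 2.64 up to which probe sets were left out as dim, and at 7.17 and 5.63 in php (log2 level). The transcript was thus near the background floor on both wild-type arrays and clearly above it on both php arrays. The php mean less the wild-type mean was 3.68 on the log2 scale (SE 0.55), or 2.91 without php replicate I. With wild-type near the floor the size of this difference is not measured well, so no fold is given. The php arrays differed by 1.53, a wider gap than 99.4% of tested probe sets had. In the TAIR10.1 order AT1G54020 follows the lipase-like genes GLL22 and GLL23, known from the PYK10 complex, which were not analysed here.

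The probe sets without a listed gene had the smallest differences. 263156_at was at 8.84 and 8.71 in wild-type and at 9.22 and 8.93 in php (log2 level). Its genotypes were separated by only 0.09, and its log2 difference was 0.30 (SE 0.12), or 0.15 without php replicate I. 257008_at was at 13.50 and 13.34 in wild-type and at 13.49 and 13.53 in php. It was the 1 probe set of the 8 whose genotypes overlapped, with a log2 difference of 0.09 (SE 0.07), and 0.01 without wild-type replicate II. After quantile normalization or median centring of the arrays this overlap was gone, so all 8 were then higher on both php arrays, as were 29.2% and 39.1% of all tested probe sets in these settings. With only the 6 probe sets that have a gene, the median log2 difference was 0.79.

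**Figure D1:**
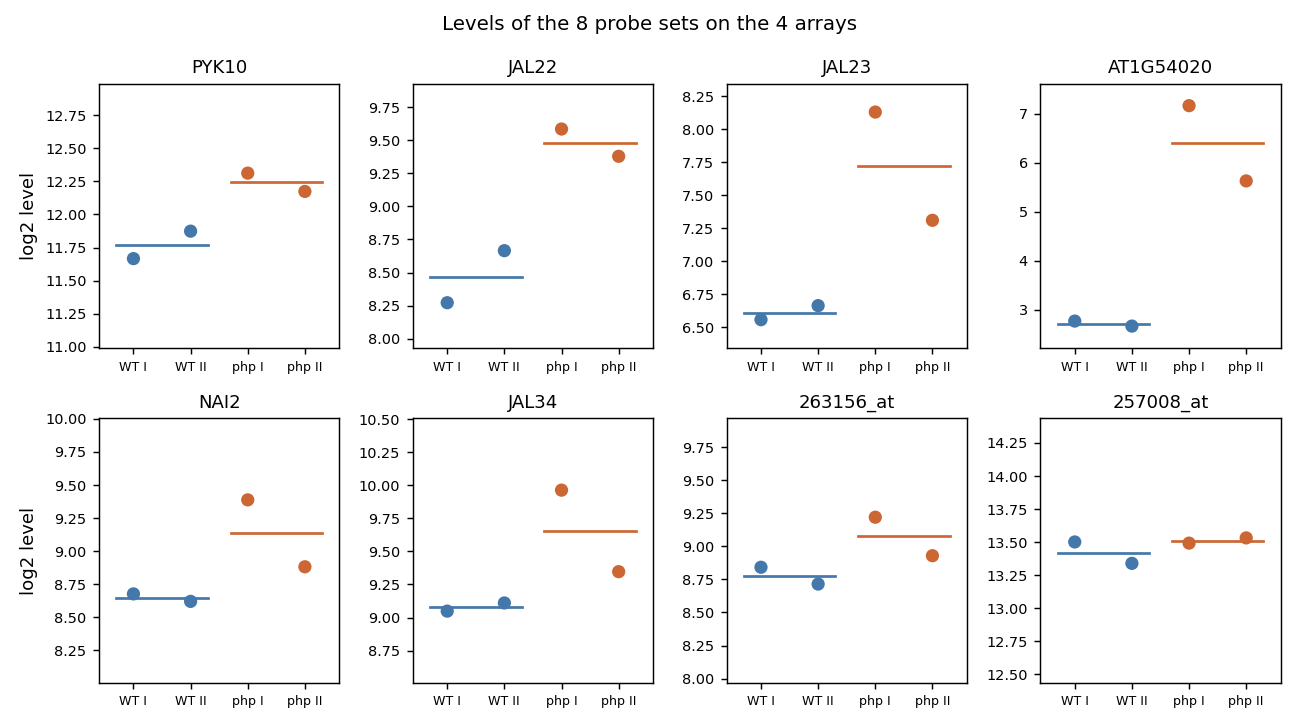
Each panel plots the log2 level of 1 gene or probe set on the 4 arrays (points; blue, wild-type; orange, php), with a line at the mean of each genotype; the vertical axes differ between panels, do not start at 0 and span at least 2 log2 units. The php points lie above the wild-type points in every panel but that of 257008_at, and AT1G54020 goes from 2.72 to 6.40 in its means.

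The php arrays were not alike for these genes. The value on php replicate I exceeded that on php replicate II for 7 of the 8 probe sets, the exception being 257008_at, where 58.8% of all tested probe sets did so. The median of php replicate I minus php replicate II was 0.40 for the 8 and 0.02 for all tested, and the median size of that gap was 0.40 and 0.11. Between the wild-type arrays the median size of the gap was 0.12 for the 8 and 0.09 for all tested, with replicate II the higher for 4 of the 8. With php replicate I left out, the median difference of the 8 from wild-type was 0.34. With php replicate II left out it was 0.81. With 1 array left out, the sign cannot change for the 7 whose genotypes did not overlap. The difference of 257008_at also stayed positive, at its smallest 0.01, without wild-type replicate II.

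The spread between the php arrays varied by gene. It was narrower for PYK10, at 0.14, and for JAL22, at 0.21, than for NAI2 and JAL34, but still wider than 57.1% and 72.1% of tested probe sets had. It was 0.51 for NAI2 and 0.62 for JAL34, the latter wider than 96.8% of tested probe sets had. Without php replicate I the difference from wild-type was at least 1.5 times smaller for JAL23, NAI2, JAL34 and 263156_at. In proportion it fell by less for PYK10, JAL22 and AT1G54020, and for 257008_at it rose, from 0.09 to 0.11. In log2 units, however, the fall was largest for AT1G54020, from 3.68 to 2.91, beside 1.11 to 0.70 for JAL23.

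**Figure D2:**
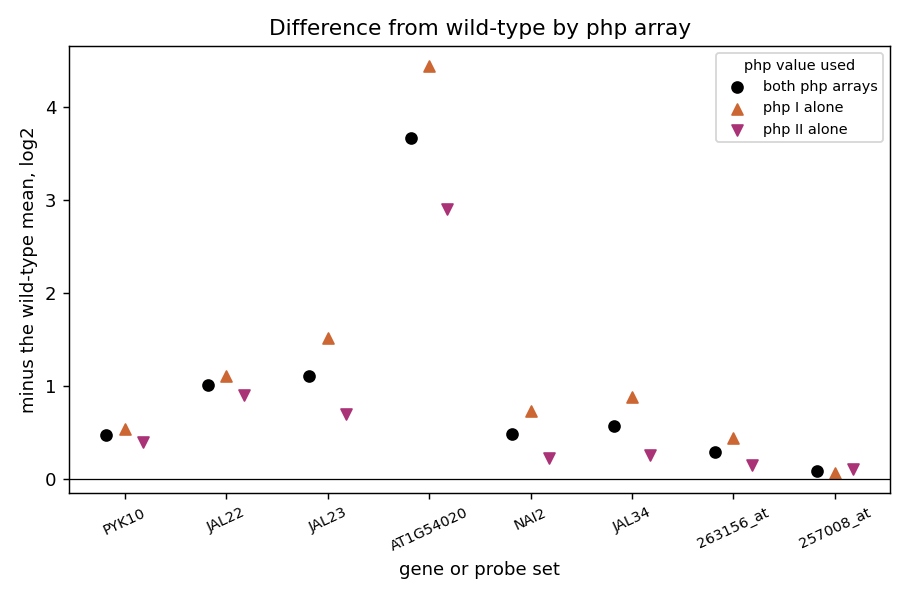
The vertical axis is the log2 difference from the wild-type mean, for the mean of both php arrays (circles), php replicate I alone (upward triangles) and php replicate II alone (downward triangles). Triangles lie close together for PYK10 (0.54 and 0.40) and JAL22 (1.12 and 0.91) and far apart for JAL23 (1.52 and 0.70).

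Other genes of the same pathways were taken from lists made by locus, of 88 loci in all: ER body and PYK10 complex, myrosinases and their binding proteins, specifier proteins and nitrilases, glucosinolate synthesis, and glucosinolate regulators and transporters. A probe set with 1 named gene was found for 18 of the loci. Of these, 6 belong to the chosen set and 12 do not. The fit called 0 of these 12 in either direction, and 4 had an unadjusted p under 0.05 (limma), beside 0.0314% and 24.2% of all tested probe sets. Their median log2 difference was 0.17, and on both php arrays 7 of the 12 exceeded, and 0 fell short of, both wild-type arrays, where 33.2% and 27.4% of all tested probe sets did. After quantile normalization 5 of the 12 exceeded both (29.2% of all tested), as NAI1 and AOP3 then overlapped, and after median centring 7 did (39.1% of all). Genes of the myrosinase list and of the specifier protein list were not analysed here.

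Of the ER body and PYK10 complex list, 8 of 21 genes were measured, and those outside the chosen set were NAI1 and JAL33. The rest of that list was not analysed here. NAI1, the transcription factor of the ER body pathway, was at 4.04 and 3.97 in wild-type and at 4.72 and 4.05 in php (log2 level). Only php replicate I stood apart. The log2 difference was 0.38 (SE 0.25, 95% confidence interval -0.31 to 1.06, limma adjusted p = 0.40), and it was 0.05 without php replicate I. JAL33, a lectin gene that stands directly beside JAL34 in the gene order, was at 8.16 and 8.62 in wild-type and at 9.21 and 8.66 in php. Here php replicate II exceeded the higher wild-type array by only 0.04. Its log2 difference was 0.54 (SE 0.26, 95% confidence interval -0.18 to 1.26, limma adjusted p = 0.29) and 0.27 without php replicate I. Neighbouring lectin genes of this family are similar in sequence, so shared hybridisation between their probe sets was not tested.

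Of glucosinolate synthesis, 6 of 35 listed genes were measured, with a median log2 difference of 0.07. UGT74B1, the glucosyltransferase that adds the glucose, was at 10.68 and 10.69 in wild-type and at 10.87 and 10.94 in php (log2 level). The genotypes did not overlap, and they differed by 0.22 (SE 0.05, limma adjusted p = 0.13). AOP1, which encodes a dioxygenase of the family that modifies glucosinolate side chains, differed by 0.25 (SE 0.08, limma adjusted p = 0.18). The other 4 lay between -0.06 and 0.11. They included BCAT4, which starts the chain elongation of methionine, at 0.03, and GSTU20, a glutathione transferase, at 0.01.

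Of the regulators and transporters, 4 of 14 listed genes were measured. GTR1, a glucosinolate importer, was at 9.08 and 9.30 in wild-type and at 9.50 and 9.72 in php (log2 level). Its genotypes did not overlap and differed by 0.42 (SE 0.12, limma adjusted p = 0.16). MYC3, a transcription factor of jasmonate signalling that acts with the glucosinolate MYB factors, differed by 0.27 (SE 0.09, limma adjusted p = 0.19). The related genes MYC4 and GTR2 overlapped between genotypes, at 0.08 (SE 0.27) and -0.07 (SE 0.07).

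**Figure D3:**
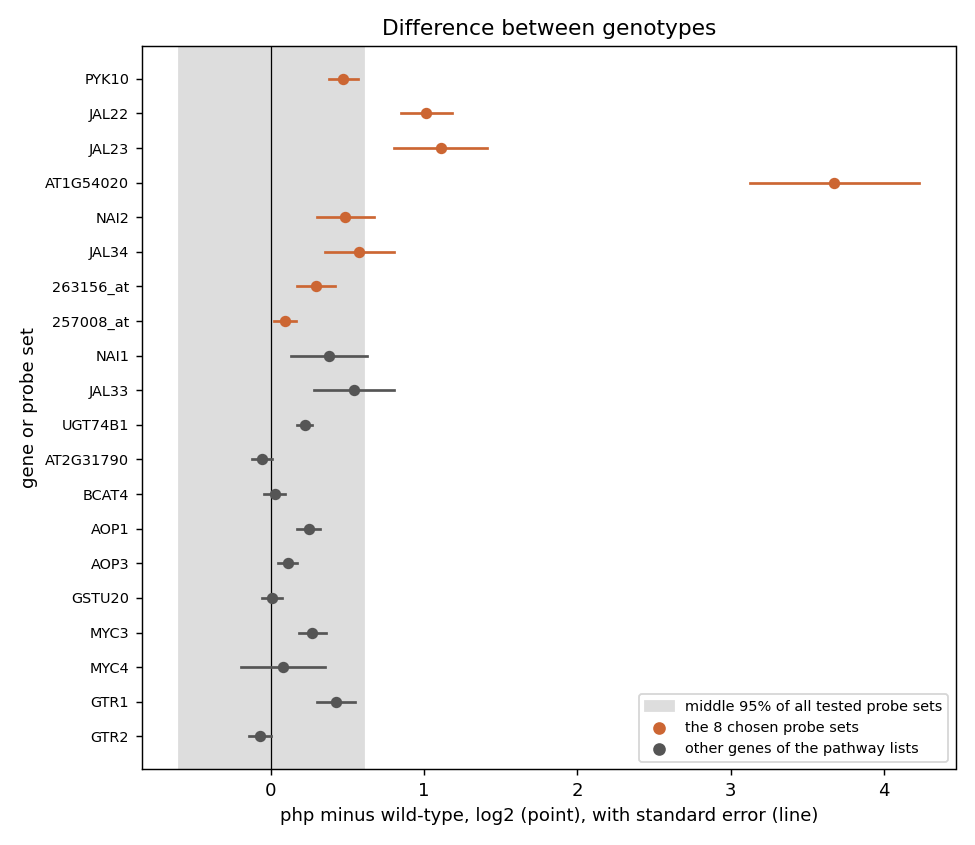
The horizontal axis is the log2 difference, php minus wild-type, for the 8 chosen probe sets (orange) and the 12 other pathway genes (grey); points are differences, lines extend 1 standard error to each side, and the grey band, from -0.60 to 0.60, holds the middle 95% of all tested probe sets. AT1G54020, JAL23 and JAL22 lie beyond the band, and all 12 grey points lie within it.

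The enzyme and lectin families were then compared by the family names in the annotation, a choice made after the values were seen. The annotation names 7 jacalin-related lectin loci, of which 4 were measured and tested, and all 4 were higher on both php arrays, also after quantile normalization and median centring, beside 33.2% of all tested probe sets, and 29.2% and 39.1% in those settings. Of the 4, 3 are in the chosen set, so the count is a description. Of 47 beta-glucosidase loci named in the annotation 22 were measured, and 10 of the measured genes were below the filter, with mean levels of 1.99 to 2.61. BGLU18, BGLU21 and BGLU22, which are on the ER body list, were not analysed here. Of the 12 tested, PYK10 was 1 of 5 that lay above both wild-type arrays in php, and 4 lay below both, shares near the 33.2% and 27.4% of all tested probe sets. After quantile normalization the counts were 5 and 4, with BGLU44 in place of BGLU45 among the 5, and after median centring, with BGLU44 added, they were 6 and 4. Of the 5 in the deposited values, BGLU45 and BGLU24 were near the filter level of 2.64. BGLU45 was at 2.63 and 2.53 in wild-type and at 2.69 and 3.31 in php. BGLU24 was at 2.73 and 2.69 in wild-type and at 2.89 and 2.80 in php. The wild-type mean of BGLU45, 2.58, was under that level, so it passed only through php. The 11 tested genes other than PYK10 had a median log2 difference of 0.01, between -0.74 and 0.42. Of the 11, limma called 0, and 4 had an unadjusted p under 0.05, beside 0.0314% and 24.2% of all tested probe sets.

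BGLU16 was at 8.43 and 8.41 in wild-type and at 8.92 and 8.71 in php (log2 level), a difference of 0.39 (SE 0.09, limma adjusted p = 0.13). BGLU15 was at 5.06 and 5.24 in wild-type and at 4.19 and 4.64 in php, a difference of -0.74 (SE 0.19, limma adjusted p = 0.14). BGLU47 was also lower on both php arrays, by -0.68 (SE 0.33), and by -0.25 without php replicate I. BGLU44, bright on all arrays, differed by 0.01.

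**Figure D4:**
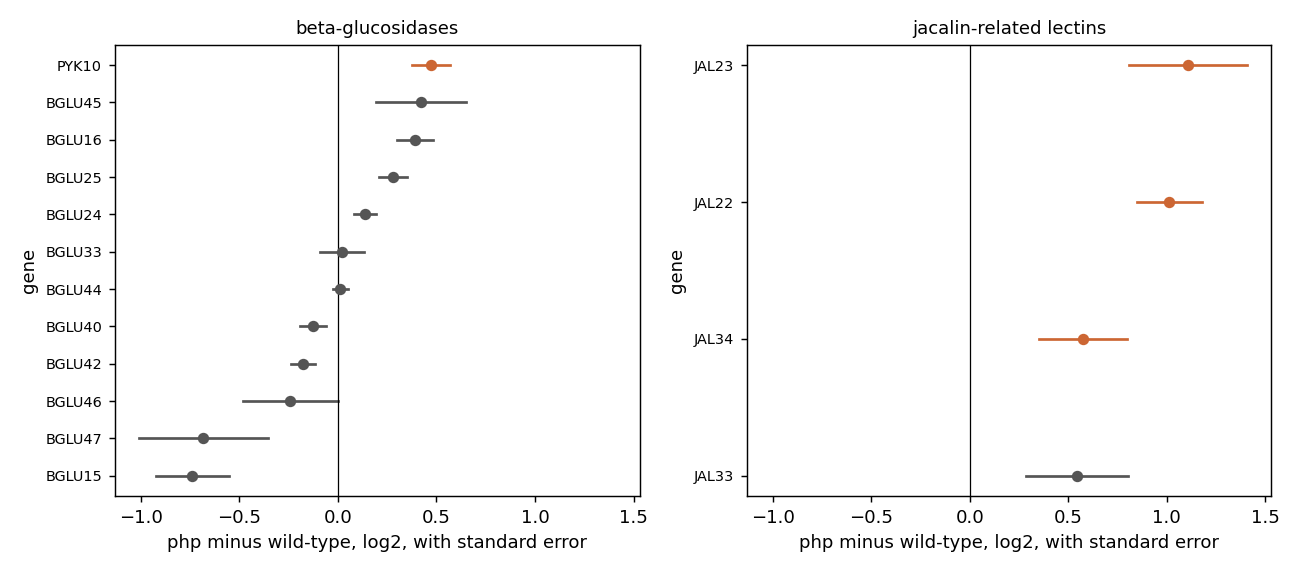
The horizontal axis is the log2 difference, php minus wild-type, with 1 standard error to each side, for the tested beta-glucosidase genes (left) and jacalin-related lectin genes (right); genes of the chosen set are orange. The 4 lectin genes lie between 0.54 and 1.11, and the 12 beta-glucosidase genes between -0.74 and 0.47.

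The nearest measured gene on each side of the 6 named genes was examined in the TAIR10.1 order, to describe whether neighbours differed too. Measured means that a probe set with 1 named gene was found. Up to 5 gene models lie between, so a neighbour is often not the adjacent gene, and the genes passed over were not analysed here. The neighbours were 11 genes outside the chosen set, of which 8 passed the filter. The fit called 0 of the 8, and 0 had an unadjusted p under 0.05 (limma), beside 0.0314% and 24.2% of all tested probe sets, so a count of 0 called is what the background gives. Their log2 differences had a median of 0.01 and a range of -0.13 to 0.54. JAL33, beside JAL34, was at the upper end. AT2G39320, between JAL22 and JAL23, was dim on every array, at 2.11 to 2.28. AT3G15940, before NAI2 with 1 gene model between, differed by 0.01 (SE 0.10). AT1G54050, the nearest measured gene after AT1G54020 with 3 gene models between, differed by -0.04 (SE 0.10).

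The named genes most like PYK10, JAL22 and JAL23 over the 4 arrays were found by the same root mean square distance, over tested probe sets with 1 gene. The nearest to PYK10 were AT5G59670 and AT5G27410, at distances of 0.01 and 0.03 log2 units. The nearest to JAL22 were AT5G13200 and AT5G57340, at 0.06 and 0.09. The nearest to JAL23 were AT5G05600 and AT1G62770, at 0.08 and 0.12. None of these 6 is on the pathway lists. Each has a log2 difference within 0.20 of the gene it resembles, which follows from the choice by distance.

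Markers of other organs were read on the same arrays. The measured root markers, EXPA7 and EXPA18 of root hairs, 2 of the 9 listed, were at 1.90 to 1.93 on all arrays, below the filter. The part of root tissue in the PYK10 level was not tested. Of the 11 green tissue markers 4 were measured, and LHCB4.1, LHCB4.2 and RCA were at 14.29 to 14.55 on all arrays. LHCB4.1 was higher on both php arrays, and LHCB4.2 and RCA were lower on both, as were 33.2% and 27.4% of all tested probe sets. Their log2 differences were 0.066, -0.095 and -0.029. LHCB4.3 was at 9.29 and 9.37 in wild-type and at 9.17 and 9.50 in php, with overlap. The measured flower markers AMS and INO were at 1.98 to 2.19, below the filter. FMA, also called FAMA, which directs guard cells and the myrosin cells that hold myrosinase, was at 6.19 and 6.40 in wild-type and at 6.47 and 6.20 in php, with overlap. SPCH, which starts the stomatal lineage, was at 6.63 and 6.81 in wild-type and lower on both php arrays, at 6.55 and 6.55 (log2 difference -0.17, SE 0.10, limma adjusted p = 0.37). The rRNA control probe sets of the array were higher on both php arrays, the 25S control at 5.40 and 5.50 in wild-type against 6.30 and 6.97 in php. They were higher on php replicate II than on php replicate I, whereas 7 of the 8 chosen probe sets were the reverse, and their part in the differences was not tested. Since the transcript of PHP itself was not analysed here, it gives no check of which arrays are mutant.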

How the data were processed

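Deposited values are log2 levels per probe set that, per the series' design text, the authors made from CEL files with GCRMA background correction and normalization. MAS5 is also named in the submitters' processing notes, with no role and no version. Array medians were 5.59 to 5.64, so no further normalization was applied. Of 22810 probe sets, 64 controls and the lowest 30% by mean level (up to 2.64) were left out, leaving 15922. Arrays have no read depth; their number limits the precision.

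The platform table listed 14016 probe sets, 13513 with 1 gene and 503 with several, and 13436 matched a TAIR10.1 locus. It was used for names and gene order only. No name was taken from a probe set with several genes.

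Genotypes were compared with limma 3.58.1 in R 4.3.3 (lmFit, eBayes with a variance trend, two-sided, Benjamini-Hochberg over the 15922), and calls were made at an adjusted p under 0.05. Standard errors and confidence intervals came from this fit, with its moderated variances. The fit was tested on simulated data. With 2 arrays against 2, exact permutation gives a two-sided p of 0.333 at best, so p-values rest on the model. Members and lists were chosen with earlier results of these data known, and members get no p-value. Genes named were the 8, other measured genes of the ER body, myrosinase and specifier lists, the 4 with the smallest p of the synthesis and regulator lists, and the 2 nearest profiles to PYK10, JAL22 and JAL23. Marker genes, family members, neighbours and the remaining synthesis and regulator genes named were added after their values were seen. Alternatives were other filters on dim probe sets, no variance trend, quantile normalization, median centring, a replicate block and leaving out each array. Figures were drawn with matplotlib 3.10.9.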

Additional observations from a re-analysis of the deposited data

Results flagged for a closer look

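The rRNA control probe sets, which the comparison did not use, carried a signal above the wild-type level on both php arrays. The 25S control differed by 1.18 and the 5S control by 1.09 (log2, php minus wild-type). The 5S control was at 4.38 and 4.09 in wild-type and at 5.05 and 5.59 in php.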

How the results depend on the processing

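All members that were tested kept a positive difference under each of the 10 alternatives, and 0 were called under any, with 3 to 7 at an unadjusted p under 0.05 in limma, where 12.0% to 35.3% of all tested probe sets were. Of the 12 other pathway genes 0 were called under any, with 0 to 5 at an unadjusted p under 0.05. With 1 array left out, the sign could not change for members whose genotypes did not overlap. The other filters, the variance trend and the replicate block leave each single difference unchanged. The median difference of the members was 0.53, and 0.34 to 0.81 with 1 array left out. It was 0.49 with the lowest 50% of probe sets left out, a setting that removes AT1G54020. Over all probe sets, the 5 calls became 0 without the filter on dim probe sets, 21 with the lowest 50% left out, 9 with median centring and 0 with any 1 array left out, where fewer arrays enter the fit; for the others the cause was not tested. With a replicate block the count was 0 (4311 at an unadjusted p under 0.05). The labels give the genotypes the same replicate numbers without saying what a number shares. Replicate II minus I correlated at 0.52 between the genotypes over the tested probe sets, which are not independent. With 2 arrays a genotype, the size of each difference is known only as well as 1 array allows.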
